A study of Rattus norvegicus with 12 samples.

Results

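Pck1, G6pc, Fbp1, Ppargc1a, Slc2a2, Errfi1, Ppp1r3c and Lpin1 are genes of hepatic glucose production and of the hepatocyte's response to fasting. These 8 of the 32883 genes in the gene list were chosen by symbol, as enzymes, a transporter and regulators of that pathway, and were followed through every library of the rat liver atlas. The question put to them was how their transcripts differed between rat strains, between whole cells and nuclei, between kinds of droplet and between lobular zones, and whether the libraries differed in the manner of livers taken from fed and fasted animals.

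The atlas holds 12 samples of healthy male rat liver. Total liver homogenate (TLH), the dissociated whole cells, was sequenced from 2 Dark Agouti (DA) and 2 Lewis (LEW) rats, nuclei from 2 DA and 2 LEW livers, and immune-enriched cells from 1 DA and 1 LEW rat. Wistar liver gave the 2 Visium sections, in which each barcoded spot covers a small region of tissue. The design text of the series gives an age of 8 to 10 weeks for the 4 rats of the TLH libraries, the labels of all samples give standard laboratory food and no age, and the methods of the study give an older age for the DA and LEW rats and free access to chow under a light-dark cycle. For the nuclei, part of the median lobe was snap frozen before the liver was perfused and digested with collagenase to give whole cells. The time of the last meal and the hour of collection were not given in the sources used here, so strain and feeding state cannot be told apart in the comparisons below.

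In fasting, glucagon and glucocorticoids raise the transcription of gluconeogenic genes in hepatocytes through cAMP and CREB, FoxO factors and coactivators, while insulin after a meal turns these genes down and raises lipogenic enzymes. Pck1 encodes cytosolic phosphoenolpyruvate carboxykinase, which commits oxaloacetate to glucose synthesis, Fbp1 encodes fructose-1,6-bisphosphatase, and G6pc encodes the catalytic subunit of glucose-6-phosphatase, which releases free glucose. Slc2a2 encodes GLUT2, the low-affinity glucose transporter of the hepatocyte surface. Ppargc1a encodes the coactivator PGC-1α, Errfi1 an inhibitor of EGF receptor signalling, Ppp1r3c a glycogen-targeting subunit of protein phosphatase 1, and Lpin1 a phosphatidate phosphatase that also acts as a coactivator. Gluconeogenesis is known as a periportal function of the liver lobule.

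Promoter sequences were taken from the RefSeq set on the GRCr8 build, which held an entry for all 8 genes, with G6pc under its symbol G6pc1. The 200 bases before the annotated start are shown for 4 genes. Of these, 3 carried the core letters of the cAMP response element, TGACG or its reverse complement CGTCA, and G6pc carried neither. These are letters through which cAMP and CREB are known to act. Only exact matches were counted, so variants of a site would be missed, in G6pc as in the others. Each sequence reads 5′ to 3′ on the strand of its gene, which was the plus strand for these 4 genes, and capitals mark the core letters.
Pck1 (chr3:182348372-182348571): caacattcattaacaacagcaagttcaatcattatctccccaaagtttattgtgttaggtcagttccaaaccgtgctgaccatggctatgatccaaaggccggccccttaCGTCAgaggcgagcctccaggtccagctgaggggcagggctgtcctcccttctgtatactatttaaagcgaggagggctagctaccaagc
Errfi1 (chr5:166606641-166606840): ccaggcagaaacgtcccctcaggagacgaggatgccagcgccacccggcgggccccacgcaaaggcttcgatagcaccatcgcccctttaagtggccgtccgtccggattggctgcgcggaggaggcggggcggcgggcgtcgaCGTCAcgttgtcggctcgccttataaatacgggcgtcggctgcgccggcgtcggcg
Ppargc1a (chr14:63634108-63634307): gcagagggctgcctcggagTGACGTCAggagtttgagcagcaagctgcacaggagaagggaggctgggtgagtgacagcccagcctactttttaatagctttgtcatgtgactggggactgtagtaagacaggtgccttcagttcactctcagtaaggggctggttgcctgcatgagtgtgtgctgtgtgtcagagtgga
G6pc (chr10:86807459-86807658): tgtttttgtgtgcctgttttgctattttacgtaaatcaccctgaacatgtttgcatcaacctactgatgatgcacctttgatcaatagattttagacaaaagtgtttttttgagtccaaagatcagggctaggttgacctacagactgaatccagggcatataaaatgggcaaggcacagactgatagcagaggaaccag

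The core letters began 90 bases before the start in Pck1 and 56 bases before it in Errfi1. In Ppargc1a there were 2 matches, 181 and 178 bases before the start, which overlap as the 2 strands of the full palindrome TGACGTCA. Over 250 bases before the start and on both strands, TGACG was present in 18.2% of 33469 rat promoters, so these matches are a description of the letters and not evidence of a site in use. The exact FoxO letters TGTTTAC were found in none of the 8 promoters and in 3.21% of all promoters, and variants were not searched for. Fbp1, Slc2a2, Ppp1r3c and Lpin1 held neither motif in this window.

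Depth lay between 61441846 and 92484173 UMIs per TLH library and between 8039397 and 15186970 per nuclei library. It was 48255870 and 60005133 UMIs in the immune-enriched cells and 34449562 and 34827603 in the sections. Hepatocyte-like cells, named from albumin, apolipoprotein and other hepatocyte markers with the 8 genes and the related lists left out of the clustering, numbered 2882 to 4514 per TLH library, 1863 to 4785 per nuclei library, and 241 and 1613 in the immune-enriched libraries. Levels below are UMIs of a gene per 1000000 UMIs (CPM), summed over these cells in a library, and a sum cannot separate fewer expressing cells from less RNA per cell. LEW nuclei 1 stood apart from the other nuclei, with the lowest level of the 4 for 3948 of 8621 genes and a median share of nuclear RNA of 0.061%, against 0.278%, 0.352% and 1.095% in DA nuclei 1, DA nuclei 2 and LEW nuclei 2. The p-values below measure the spread between these libraries, 2 per strain and preparation, which may be technical in part. Kept nuclei shared 1 to 6 barcodes between pairs of libraries. Markers of other cell types were detected in the sums, and mesenchymal markers totalled 476 and 516 CPM in DA TLH against 668 and 932 CPM in LEW TLH hepatocyte-like cells.

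Pck1 was abundant in every library. Its level was 2613 and 4307 CPM in the DA TLH libraries, 2243 and 2756 CPM in the LEW TLH libraries, 7907 and 8055 CPM in DA nuclei, 4305 and 7669 CPM in LEW nuclei, and 3444 and 4083 CPM in the DA and LEW immune-enriched libraries. The other 3 nuclei libraries were above every TLH library, LEW nuclei 1 was level with DA TLH 2, and the strains overlapped among TLH cells.

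G6pc, the last enzyme of the pathway, was at 848 and 1097 CPM in DA TLH, 885 and 345 CPM in LEW TLH, 3718 and 3803 CPM in DA nuclei, 2881 and 2203 CPM in LEW nuclei, and 902 and 412 CPM in the DA and LEW immune-enriched cells. All nuclei were above all whole cells, and the strains were apart in nuclei but not in TLH. Fbp1 was at 235 and 323 CPM in DA TLH, 380 and 375 CPM in LEW TLH, 150 and 162 CPM in DA nuclei, 176 and 178 CPM in LEW nuclei, and 157 and 263 CPM in the immune-enriched cells. It was the member with the opposite order, with every nuclei library below every TLH library and both LEW libraries above both DA libraries in each. The shares of all genes without overlap between nuclei and TLH were not counted.

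Slc2a2 was at 252 and 213 CPM in DA TLH, 161 and 137 CPM in LEW TLH, 617 and 417 CPM in DA nuclei, 456 and 295 CPM in LEW nuclei, and 208 and 205 CPM in the immune-enriched cells. Both LEW TLH libraries were below both DA TLH libraries, while the nuclei of the strains overlapped.

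Errfi1 was at 1123 and 1507 CPM in DA TLH, 589 and 746 CPM in LEW TLH, 2183 and 2291 CPM in DA nuclei, 1232 and 2279 CPM in LEW nuclei, and 1008 and 986 CPM in the immune-enriched cells. The strains were apart in TLH and met in nuclei, where LEW nuclei 2 lay within the DA range. Ppp1r3c was at 93.7 and 179 CPM in DA TLH, 73.0 and 22.6 CPM in LEW TLH, 226 and 188 CPM in DA nuclei, 115 and 145 CPM in LEW nuclei, and 110 and 28.9 CPM in the immune-enriched cells. Its LEW libraries were below its DA libraries in each of the 3 kinds of preparation.

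Lpin1 was at 5.39 and 23.5 CPM in DA TLH, 3.17 and 3.05 CPM in LEW TLH, 762 and 72.9 CPM in DA nuclei, 43.0 and 44.3 CPM in LEW nuclei, and 12.5 and 10.0 CPM in the immune-enriched cells. DA TLH 2 and DA nuclei 1 were each far above the other libraries of their kind. Ppargc1a was close to the detection limit, at 1.03 to 2.11 CPM in TLH on 12 to 18 UMIs per library and at 1.01 to 5.23 CPM in nuclei on 9 to 28 UMIs. The lowest and highest nuclei values were both from LEW libraries, the strains overlapped in both preparations, and no order of the strains can be read.

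**Figure D1:**
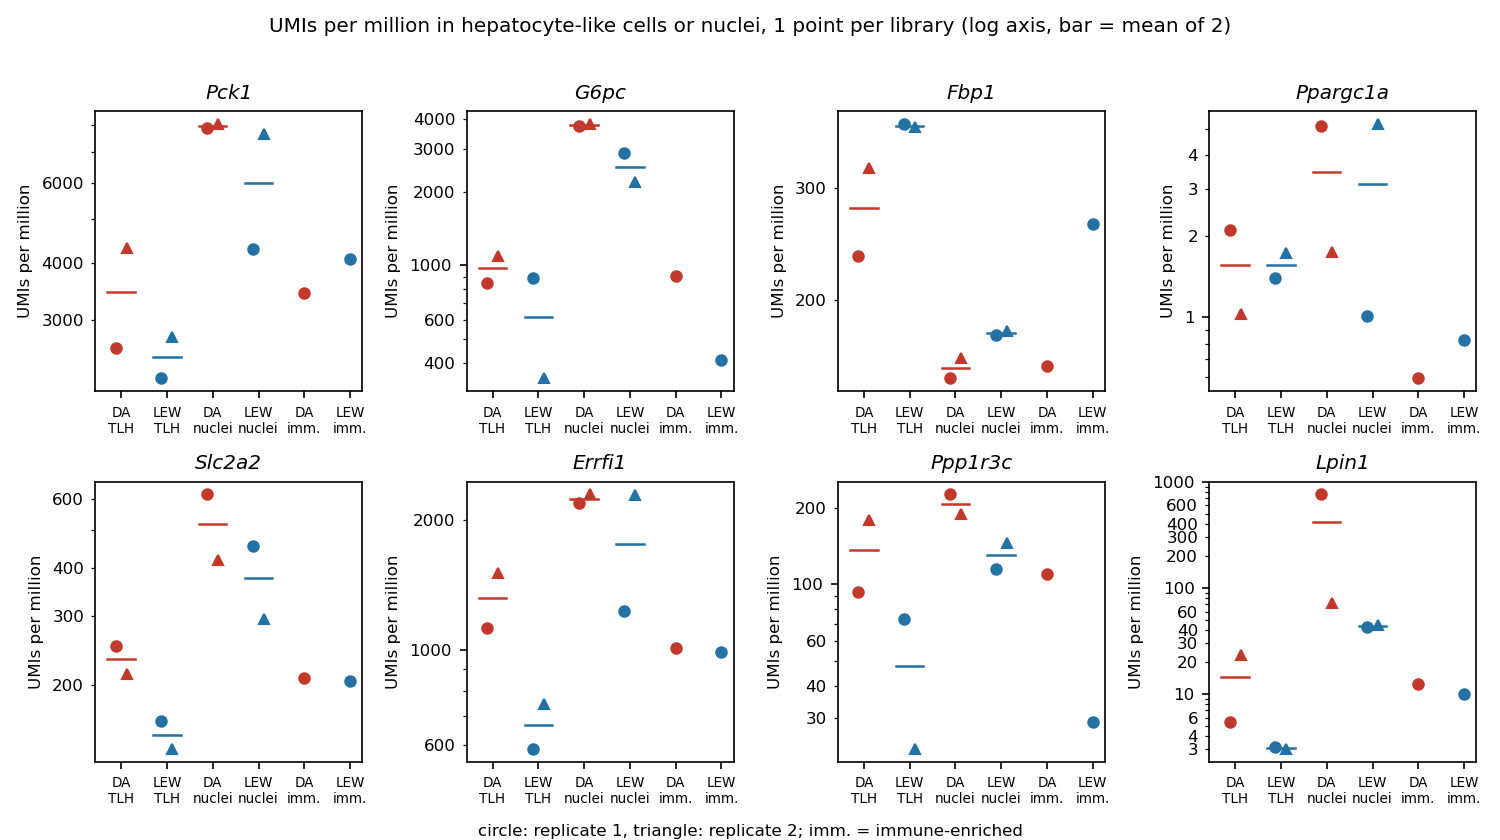
Level of the 8 genes in hepatocyte-like cells, in CPM on a log axis, with 1 point per library and libraries grouped by strain and preparation. Pck1 lies between 2243 and 8055 CPM throughout, Fbp1 is lower in nuclei than in TLH, and Lpin1 reaches 762 CPM in DA nuclei 1 against 43.0 to 72.9 CPM in the other nuclei.

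Between the strains, Errfi1 was the member that passed the test in whole cells. In TLH hepatocyte-like cells it was lower in LEW rats by a log2 fold change of -0.95 (SE 0.20, adjusted p = 0.0463 by edgeR, 2 rats against 2), where 401 of 9840 genes, 4.08% of those tested, were called. Slc2a2 came next, with a log2 fold change of -0.61 (SE 0.15, adjusted p = 0.062), and was called in 5 of 17 alternative settings, among them DESeq2 (adjusted p = 0.04057) and the fit without the filter on low counts (adjusted p = 0.001697). The call for Errfi1 held in 13 of 17 alternative settings and was lost without DA TLH 2 (adjusted p = 0.1087), without LEW TLH 1 (adjusted p = 0.2348), without LEW TLH 2 (adjusted p = 0.1705) and with the lower UMI limit for LEW rats (adjusted p = 0.06551).

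The remaining members did not pass the test in TLH. Pck1 had a log2 fold change of -0.45 (SE 0.28, adjusted p = 0.4311), G6pc of -0.64 (SE 0.54, adjusted p = 0.588) and Fbp1 of 0.46 (SE 0.18, adjusted p = 0.1982). Ppp1r3c, at -1.49 (SE 0.78, adjusted p = 0.4091), and Lpin1, at -2.23 (SE 0.93, adjusted p = 0.3106), had larger estimates and larger errors, and Ppargc1a was at 0.06 (SE 0.48). Without the filter on low counts, where 7.15% of genes were called, Pck1 was called at -0.45 (adjusted p = 0.0281) and Fbp1 at 0.45 (adjusted p = 0.03559). Lpin1 was called at -2.92 without DA TLH 1 (adjusted p = 0.000672) and at -1.62 with fewer clusters named as hepatocyte-like (adjusted p = 0.03793), where 5.67% of genes were called. Both LEW libraries were below both DA libraries for Slc2a2, Errfi1, Ppp1r3c and Lpin1, 4 of the 8, whereas 28.9% of all genes tested were so ordered, and both were above for Fbp1 alone, against 24.2% of all genes. The median log2 fold change of the members was -0.63, and that of all genes tested was -0.003.

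In nuclei no member passed the test, where 120 of 10442 genes, 1.15%, were called and 0.661% were called lower. Log2 fold changes, LEW over DA, were -0.40 for Pck1 (SE 0.45), -0.50 for G6pc (SE 0.46), 0.24 for Fbp1 (SE 0.38), -0.40 for Slc2a2 (SE 0.48), -0.34 for Errfi1 (SE 0.45), -0.23 for Ppargc1a (SE 0.72) and -0.64 for Ppp1r3c (SE 0.39), all with adjusted p of 0.6953 or more by edgeR. Lpin1 was at -3.26 (SE 1.01, adjusted p = 0.2843). That value rested on DA nuclei 1, since it was -0.59 without this library and -4.14, past the threshold at an adjusted p of 9.113e-05, without DA nuclei 2. With all 4 libraries and no filter on low counts, where 2.51% of genes were called, Lpin1 was called at -3.21 (adjusted p = 1.05e-05). Without LEW nuclei 1, Pck1 was at -0.16 and Errfi1 at -0.08, while G6pc was at -0.88 and Slc2a2 at -0.93, so the sizes for these genes depended on that library. They depended on others too, since Slc2a2 was at 0.04 without DA nuclei 1 and at 0.001 without LEW nuclei 2, where G6pc was at -0.19. Pck1, G6pc, Ppp1r3c and Lpin1, 4 of the 8, were lower in both LEW libraries than in both DA libraries, against 18.9% of all genes, and Fbp1 was higher in both, against 16.5%.

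The strain difference itself was not shown to differ between whole cells and nuclei. In the interaction test by edgeR, 0 of 11512 genes (0%) passed, 494 had an unadjusted p under 0.05, and DESeq2 called 10 genes, none of them among the 7 members that received an adjusted p. Each member had an adjusted p of 0.9999, with differences of the log2 fold changes between -1.09 (SE 1.81) for Lpin1 and 0.81 (SE 0.69) for Ppp1r3c.

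The feeding question was put to lists of other genes with known responses, and these did not all move one way. Targets of the fasting hormones, such as Tat, Igfbp1 and Irs2, were mostly lower in LEW rats: in TLH 9 of 10 had a log2 fold change below 0 with a median of -0.84, but none of them was called, and in nuclei all 10 were below 0 with a median of -1.19 and 2 were called. The 2 were Nr4a1, an orphan nuclear receptor induced by cAMP, at -2.27 (adjusted p = 0.008104), and Irs2, an adaptor of the insulin receptor that rises in fasting, at -2.0 (adjusted p = 0.04625). The median in nuclei was -1.24 without LEW nuclei 1, -1.39 without LEW nuclei 2, -1.58 without DA nuclei 2, and -0.84 with 9 of 10 below 0 without DA nuclei 1. Without LEW nuclei 1 Nr4a1 remained called (adjusted p = 0.01384), while Irs2, at -2.12, did not (adjusted p = 0.09588). Irs2 was called in 1 of the 4 fits with a library left out, was at -1.42 without DA nuclei 1 (adjusted p = 0.6299) and at -0.86 with fewer clusters named as hepatocyte-like (adjusted p = 0.2865), whereas Nr4a1 was called in all 4 of the fits with a library left out. Without DA TLH 2 the TLH median was -0.52 with 7 of 10 below 0. DESeq2 called 5 of the 10 lower in TLH, where it called 2.13% of all genes lower, and edgeR without the filter on low counts called 8, where it called 3.81% lower.

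The list of fed-state lipogenic and glycolytic genes, of which 12 are reported, had medians of 0.27 in TLH, with 7 above 0 and 5 below, and 0.36 in nuclei, with 9 above and 3 below. The TLH median was -0.06 without LEW TLH 1, and that of nuclei was 0.16 without LEW nuclei 1. Pnpla3, a lipid droplet protein, was higher in LEW TLH at 1.18 (adjusted p = 0.01245). Acly, which makes acetyl-CoA for lipogenesis, was also called in TLH, at 0.75 (adjusted p = 0.03407), and none of the 12 genes reported was called in nuclei.

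Fatty acid catabolic targets of PPARα, which fasting raises, had medians of -0.06 in TLH and -0.47 in nuclei. Fgf21, the hepatic fasting hormone, was higher in LEW rats in both preparations, by 1.96 in TLH (adjusted p = 0.02757) and 2.91 in nuclei (adjusted p = 0.008104), and Pdk4, an inhibitor of pyruvate dehydrogenase, was lower in nuclei by a log2 fold change of -1.80 (adjusted p = 0.04917). Fgf21 remained called without LEW nuclei 1 (adjusted p = 0.01034), and Pdk4 did not (adjusted p = 0.06557). In TLH, Pnpla3 and Fgf21 kept their direction with 1 library left out but were called in 1 of the 4 such fits, and Acly in 0 of the 4. In nuclei Fgf21 was called in 4 of 4 such fits, but with fewer clusters named as hepatocyte-like it was at 1.44 and was not called (adjusted p = 0.4285). Pdk4 had the other direction in TLH, at 1.01 without a call (adjusted p = 0.1116 by edgeR). Both genes were low, with Fgf21 at 1.43 to 8.77 CPM in TLH and 2.21 to 42.6 CPM in nuclei. Pdk4 was at 1.99 to 4.57 CPM in TLH and 6.39 to 46.4 CPM in nuclei. The called genes of this list thus stood on both sides between the strains in nuclei, with low levels behind Fgf21 and Pdk4, and the part of feeding state was not tested.

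Of the other lists, the glycogen genes had medians of 0.11 in TLH and -0.08 in nuclei, with Ppp1r3b, the liver glycogen-targeting subunit, lower in LEW TLH at -1.11 (adjusted p = 0.01776). Other enzymes of gluconeogenesis and glycolysis had medians of -0.03 and 0.20, with none of 17 called in either preparation. Regulators such as Foxo1 and Ppara had a median of -0.39 in TLH, where Cebpb was called lower at -0.98 (adjusted p = 0.02344), and -0.23 in nuclei, where none was called. Immediate-early genes that tissue dissociation induces were all below 0 in TLH, 10 of 10, with a median of -1.0 and 3 called, led by Btg2 at -1.44 (adjusted p = 0.03972) and Zfp36 at -1.10 (adjusted p = 0.03407). LEW TLH 1 had the lowest level for 9 of 9 of them at 5 CPM or more, and the median was -0.73 without it and -1.84 without LEW TLH 2. In nuclei, which were not digested, the median was -0.09 and none of 10 was called, but the LEW nuclei stood far apart. LEW nuclei 1 had the lowest level for 9 of 9 genes and LEW nuclei 2 the highest for 6, with a median log2 ratio of 2.56 between them. The strain median was 0.26 without LEW nuclei 1 and -1.54, with all 10 below 0, without LEW nuclei 2. Btg2 (adjusted p = 0.1001) and Zfp36 (adjusted p = 0.05838) lost their TLH calls with the lower UMI limit for LEW rats, and Ppp1r3b, Cebpb, Btg2 and Zfp36 were each called in 1 of the 4 TLH fits with a library left out. The dissociation genes moved with Errfi1 and with the fasting hormone targets in TLH, and their part in the strain difference was not tested.

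**Figure D2:**
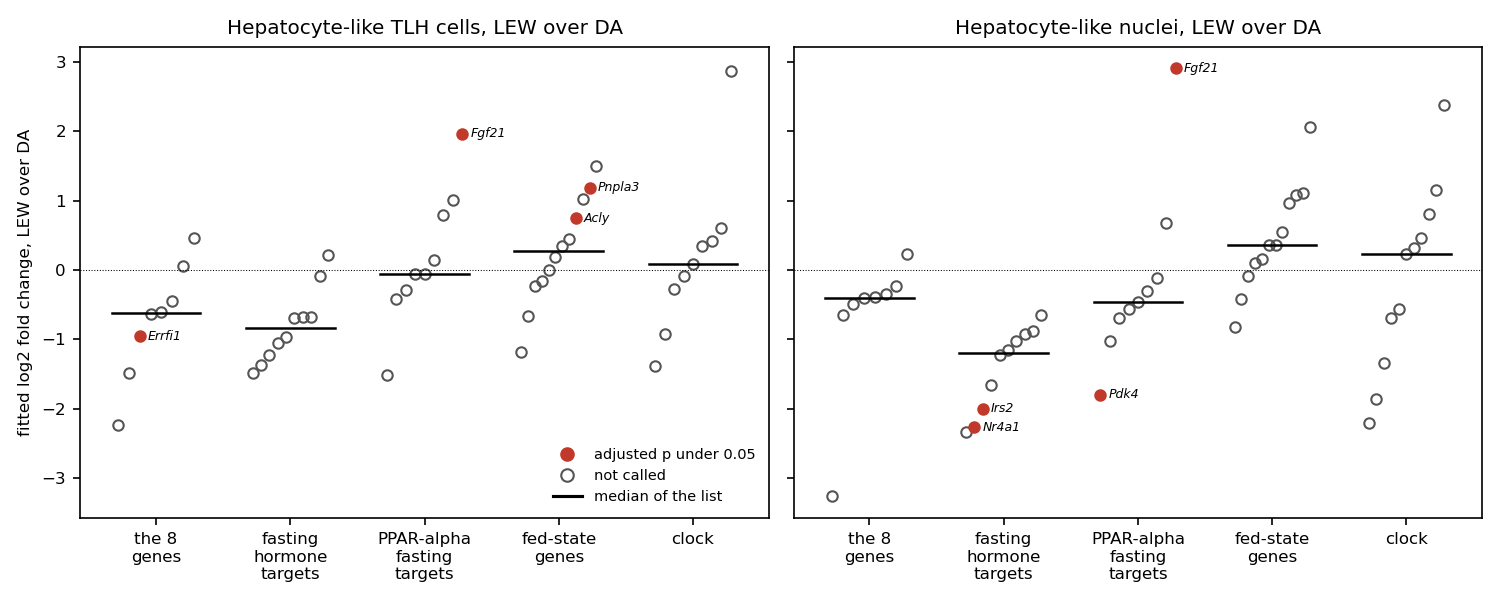
Log2 fold change, LEW over DA, of each gene of the lists in TLH cells and in nuclei, with 1 point per gene and a bar at the median of the list. The fasting hormone targets have medians of -0.84 in TLH and -1.19 in nuclei, while the fed-state genes have medians of 0.27 and 0.36.

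Between libraries of 1 strain, each member differed in at least 1 preparation by a fold as large as that between strains. Within-strain folds were smaller than the strain fold for Slc2a2, Errfi1 and Lpin1 in TLH, and for G6pc, Fbp1 and Ppp1r3c in nuclei. Between the LEW nuclei Pck1 differed 1.78-fold and Errfi1 1.85-fold, against strain folds of 1.32 and 1.27. In LEW TLH, replicate 1 had 2.57 times the G6pc level and 3.23 times the Ppp1r3c level of replicate 2. Lpin1 differed 4.36-fold between the DA TLH libraries and 10.4-fold between the DA nuclei libraries, but 1.04-fold and 1.03-fold between the LEW libraries.

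One library of each DA preparation was high in Lpin1 and in the fasting hormone targets. DA TLH 2 had the highest level among TLH libraries for 5 of 7 members of at least 5 CPM and for 8 of 10 fasting hormone targets, against 22.7% of 7018 genes, and DA nuclei 1 had the highest among nuclei for 9 of the 10 targets, against 15.8% of 8621 genes. Of the members in nuclei DA nuclei 1 was highest for 3 of 7, as was DA nuclei 2, so the members did not follow the targets there. The same libraries were the lowest of their preparation in Nr1d1 and Dbp, which are transcribed under the circadian clock. Nr1d1 was at 4.20 CPM in DA TLH 2 against 40.2 to 60.4 CPM in the other TLH libraries, and at 4.18 CPM in DA nuclei 1 against 60.6 to 175 CPM in the other nuclei. Dbp was at 3.01 CPM against 11.4 to 85.7 CPM in TLH, and at 2.21 CPM against 30.2 to 305 CPM in nuclei. Among the immune-enriched cells, with 1 library per strain, the DA library was the lower in both genes. Nr1d1 was at 1.19 against 26.0 CPM in the LEW library, and Dbp at 3.57 against 17.3 CPM. Lpin1 was at 12.5 CPM in the DA library and at 10.0 CPM in the LEW library. The sample titles number the DA TLH 2 and DA nuclei 1 libraries 2 and 1, the deposited files carry the same animal number for both, and the study describes additional rats for the nuclei, so whether they share a liver was not settled. Nr1d1 and Dbp were named after their values were seen, none of the 9 clock genes tested in TLH or of the 11 tested in nuclei was called between strains, and their part in the Lpin1 level was not tested.

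Between preparations, nuclei had relatively more G6pc and Lpin1 and less Fbp1 than whole cells. G6pc was higher in nuclei by a log2 fold change of 1.19 (SE 0.30, adjusted p = 0.002738), Lpin1 by 3.61 (SE 0.94, adjusted p = 0.01355), and Fbp1 was at -1.79 (SE 0.21, adjusted p = 5.898e-06), where 7725 of 10979 genes, 70.4%, were called, 36.6% as higher and 33.7% as lower. Pck1 at 0.39 (SE 0.25), Slc2a2 at 0.46 (SE 0.25), Errfi1 at 0.23 (SE 0.24), Ppp1r3c at 0.19 (SE 0.35) and Ppargc1a at 0.19 (SE 0.48) did not pass, although the first 4 had higher CPM in nuclei, because TMM scaling lowers the nuclei relative to total UMIs. With total UMIs only, the median log2 fold change of all genes was 0.90 in place of 0.07, the genes called were 6526 higher and 1761 lower in place of 4021 and 3704, and Pck1 at 1.24, Slc2a2 at 1.25, Errfi1 at 1.08 and Ppp1r3c at 1.02 were called higher. G6pc at 2.00, Lpin1 at 4.39 and Fbp1 at -0.97 kept their calls and directions. The size for Lpin1 rested in part on DA nuclei 1, since it was 2.26 without this library (adjusted p = 0.006498). Without LEW nuclei 1 Pck1 was called under TMM at 0.54 (adjusted p = 0.02391), and without LEW nuclei 2 Slc2a2 at 0.61 (adjusted p = 0.02303). Chemistry differed with preparation, v2 for TLH and v3 for nuclei, and the 2 cannot be told apart in this fit. The immune-enriched whole cells, which the methods of the study also give as v3, were not part of it. In their DA and LEW libraries G6pc was at 902 and 412 CPM, Lpin1 at 12.5 and 10.0 CPM and Fbp1 at 157 and 263 CPM. The part of chemistry was not tested.

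The lists divided in the same comparison. Fasting hormone targets were higher in nuclei for 8 of 10, with a median of 1.15, led by Sds, a serine dehydratase of amino acid catabolism, at 2.18 (adjusted p = 0.0004237) and Irs2 at 1.82 (adjusted p = 0.0009572). The other enzymes of gluconeogenesis and glycolysis were lower for 12 of 17 and higher for 3, with a median of -1.06, led by Gapdh at -2.94 (adjusted p = 3.719e-06) and Mdh1, cytosolic malate dehydrogenase, at -2.32 (adjusted p = 5.747e-07). Among regulators 7 of 11 were higher and 1 lower, and among glycogen genes 2 of 9 were higher and 6 lower. With total UMIs only, the enzymes were lower for 8 and higher for 5 with a median of -0.26, the hormone targets higher for 10 of 10 with a median of 1.98, and the glycogen genes higher for 3 and lower for 1. Relative to the median of all genes, the enzymes stood at -1.13 under TMM and -1.15 with total UMIs, and the hormone targets at 1.08 under both.

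Nuclei were also compared by the share of nuclear RNA that they carried, where 4 of the 8 members were called, against 64.8% of all genes, so the share called was no mark of the members. Nuclei were divided within each library into equal sets, poor and rich, at the median share of UMIs from 50 genes that were most enriched in nuclei over TLH cells, none of them a member or a list gene. Pck1 went from 2013, 1689, 1217 and 4058 CPM in the poor set to 11360, 11490, 6568 and 10050 CPM in the rich set of DA nuclei 1, DA nuclei 2, LEW nuclei 1 and LEW nuclei 2. G6pc went from 1213, 814, 1200 and 998 CPM to 5186, 5415, 4114 and 2996 CPM in the same order. The rich and poor sets did not overlap for either gene. On this CPM scale the median gene was also higher in the rich set, with a log2 fold change of 1.05 over all genes tested. The share of all genes without overlap was not counted.

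Lpin1 went from 27.3, 12.8, 2.65 and 20.2 CPM to 1193, 105, 72.6 and 60.2 CPM. Slc2a2, in contrast, was at 595, 556, 503 and 424 CPM in the poor set and at 629, 343, 421 and 210 CPM in the rich set, and was lower in the rich set of 3 of the 4 libraries. Errfi1 went from 931, 904, 508 and 1446 CPM to 2916, 3039, 1762 and 2829 CPM, with every rich set above every poor set on the same CPM scale.

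In the fit with the rat in the model, 6497 of 10028 genes, 64.8%, were called between the sets, 34.5% as higher and 30.2% as lower in the rich set. Pck1 was higher by a log2 fold change of 1.37 (SE 0.31, adjusted p = 0.002284), G6pc by 1.16 (SE 0.28, adjusted p = 0.003534) and Lpin1 by 2.79 (SE 0.56, adjusted p = 0.001448), while Slc2a2 was lower at -1.36 (SE 0.28, adjusted p = 0.00129). Errfi1 at 0.65 (SE 0.28, adjusted p = 0.05241), Ppargc1a at 1.32 (SE 0.60), Ppp1r3c at 0.43 (SE 0.23) and Fbp1 at -0.58 (SE 0.25) did not pass. DESeq2, which called 5998 of the 10028 genes, called Errfi1 (adjusted p = 0.0008866) and Ppp1r3c (adjusted p = 0.03938) higher. With RLE in place of TMM scaling, where edgeR called 6673, Errfi1 (adjusted p = 0.02926) and Ppargc1a (adjusted p = 0.04866) were called. Scaling mattered here too. With total UMIs only the median of all genes was 1.05 in place of 0.18, the calls were 5786 higher and 1283 lower in place of 3464 and 3033, Slc2a2 at -0.47 was no longer called (adjusted p = 0.126), Fbp1 turned to 0.31 without a call, and Errfi1 at 1.54, Ppp1r3c at 1.32 and Ppargc1a at 2.15 were called higher. All 10 fasting hormone targets and 9 of 10 dissociation genes were higher in the rich set, which also held more UMIs per nucleus, with a median of 2518 against 1238.5 in DA nuclei 1. This comparison was added after the values were seen, and the part of the nuclear RNA share in the strain differences between nuclei was not tested. In a strain fit of the rich sets alone, 35 of 10049 genes were called. The members and fasting hormone targets had 0 calls there, and the targets a median of -1.22. The rich sets were cut at the median share of each library, 0.061% in LEW nuclei 1 and 1.095% in LEW nuclei 2. That fit therefore does not make the share equal between libraries.

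Whole hepatocyte-like cells divided by the same 50 genes differed less, since these transcripts were rare in TLH and the division came down to cells with at least 1 UMI of them against cells with none. Lpin1 went from 4.64, 14.5, 1.76 and 1.95 CPM in cells without such a UMI to 8.10, 41.2, 6.27 and 6.23 CPM in cells with one, in DA TLH 1, DA TLH 2, LEW TLH 1 and LEW TLH 2. It was higher in all 4 rats, by a log2 fold change of 1.48 (SE 0.17, adjusted p = 3.041e-12), where 1260 of 9199 genes, 13.7%, were called, 8.06% as higher and 5.64% as lower, and Errfi1 was higher by 0.21 (SE 0.06, adjusted p = 0.01282), a call lost in 4 alternatives. G6pc went from 804, 977, 756 and 251 CPM to 1008, 1332, 1169 and 618 CPM without passing the test, at 0.68 (SE 0.20, adjusted p = 0.1543), although it was called by DESeq2 (adjusted p = 0.02183) and without DA TLH 1 (0.79, adjusted p = 7.145e-16) or LEW TLH 2 (0.49, adjusted p = 6.302e-10). Pck1 at 0.10 (SE 0.06), Slc2a2 at 0.16 (SE 0.07), Ppp1r3c at 0.03 (SE 0.08) and Fbp1 at -0.01 (SE 0.06) did not pass, and Ppargc1a was too low to be tested in the divisions of TLH cells. When the division used abundant nuclear-enriched genes instead, 3156 genes were called and G6pc at 1.15 (adjusted p = 0.01739) and Slc2a2 at 0.57 (adjusted p = 1.583e-06) were among the higher ones. That division also split the cells by mitochondrial share, with medians of 13.97% against 3.84% in DA TLH 1 and 13.65% against 3.78% in LEW TLH 1, but 3.62% against 4.8% in DA TLH 2 and 5.44% against 4.16% in LEW TLH 2, and its part in these values was not tested.

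By mitochondrial share, Slc2a2 and Lpin1 divided in opposite directions. Slc2a2 went from 134, 178, 123 and 101 CPM in cells below the median mitochondrial share of their library to 369, 244, 197 and 171 CPM in cells above it, higher in each of the 4 TLH rats. Lpin1 went from 6.60, 38.4, 4.04 and 4.49 CPM to 4.20, 10.6, 2.36 and 1.69 CPM, lower in each. The log2 fold changes were 0.95 (SE 0.12, adjusted p = 1.122e-08) and -1.33 (SE 0.20, adjusted p = 1.918e-07), the latter -0.71 without DA TLH 2 (adjusted p = 0.04995), where 3057 of 9142 genes, 33.4%, were called, 16.7% in each direction. With total UMIs only the calls were 1071 higher and 2297 lower in place of 1530 and 1527, the median of all genes was -0.14, and Slc2a2 at 0.83 and Lpin1 at -1.45 kept their calls. Fbp1 was lower at -0.27 (SE 0.11, adjusted p = 0.04329), lost in 4 alternatives, and Pck1 at 0.03 (SE 0.12), Errfi1 at 0.19 (SE 0.12), G6pc at 0.24 (SE 0.12) and Ppp1r3c at 0.24 (SE 0.11) did not pass. Without DA TLH 2, G6pc at 0.36 (adjusted p = 0.004595) and Ppp1r3c at 0.25 (adjusted p = 0.04939) were called.

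TLH barcodes under the UMI limit, which can hold free RNA as well as small cells, stood close to hepatocyte-like cells in Pck1 and Fbp1 and had less G6pc. As a percentage of the hepatocyte-like level of the same rat, over the 4 rats, Pck1 stood at 92.2% to 100.3%, Fbp1 at 104.1% to 108.6%, Errfi1 at 80.8% to 93.0%, Slc2a2 at 67.9% to 84.2% and G6pc at 47.3% to 64.2%. Albumin stood at 70.9% to 91.2%. Between these droplets and hepatocyte-like cells 4215 of 12146 genes, 34.7%, were called, 17.4% as lower, with G6pc lower at -0.82 (SE 0.06, adjusted p = 9.367e-08), Slc2a2 at -0.42 (SE 0.04, adjusted p = 4.778e-12) and Errfi1 at -0.22 (SE 0.04, adjusted p = 1.604e-05). Pck1 at -0.09 (SE 0.04), Fbp1 at 0.05 (SE 0.04), Ppp1r3c at -0.02 (SE 0.05) and Ppargc1a at -0.23 (SE 0.22) did not pass. Without LEW TLH 2 Pck1 was called at -0.105 (adjusted p = 0.003245 by edgeR). DESeq2, which called 2843 of the 12146 genes, called Lpin1 lower at -1.74 (adjusted p = 0.02536). Lpin1 stood at 7.30% to 52.3%, with a log2 fold change of -2.25 (SE 0.73, adjusted p = 0.1174), which was -1.12 and called without DA TLH 2 (adjusted p = 5.139e-08). Fasting hormone targets were lower in shallow droplets for 6 of 10, with a median of -0.47.

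Hepatocyte transcripts were also counted in cells of other types, at shares that differed between members. In TLH endothelial-like cells Pck1 was at 68.4% to 84.6% of the hepatocyte-like level of the same rat, Fbp1 at 97.9% to 108.0%, Errfi1 at 65.2% to 75.5%, Slc2a2 at 54.5% to 64.7% and G6pc at 43.4% to 57.3%. Fbp1 had the highest and G6pc the lowest range of the 5, here as in the shallow droplets. Endothelial cells are not known to make glucose, and the source of the Pck1 and G6pc counted in them was not tested. The hepatocyte-like levels in TLH are to be read beside these levels. In nuclei, endothelial-like nuclei held 67.3% to 141.7% of the hepatocyte-like Pck1 level and 63.8% to 119.2% of the G6pc level. Kupffer-like nuclei held 82.6% to 227.8% and 78.6% to 188.2%, and myeloid-like nuclei 7.2% to 57.3% and 10.1% to 68.0%. Such counts stood beside the hepatocyte-like levels in nuclei as well as in TLH. A group of 443 nuclei that no marker list named held Pck1 at 11680, 12220, 11160 and 10140 CPM, above the hepatocyte-like nuclei of each library.

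Across the lobule, Slc2a2, Fbp1 and Ppp1r3c were zoned in nuclei, while Pck1 and G6pc did not pass the test. Hepatocyte-like nuclei were divided into 3 equal bins, pericentral, middle and periportal, by a score over periportal and pericentral marker genes that includes none of the members. Slc2a2 went from 527, 316, 374 and 216 CPM in the pericentral bin to 712, 510, 550 and 389 CPM in the periportal bin of DA nuclei 1, DA nuclei 2, LEW nuclei 1 and LEW nuclei 2. Fbp1 went from 124, 120, 156 and 142 CPM to 180, 202, 189 and 228 CPM. Both were higher near the portal vein in all 4 libraries.

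Ppp1r3c had the reverse gradient, from 307, 250, 137 and 185 CPM in the pericentral bin to 179, 129, 100 and 98.9 CPM in the periportal bin. Pck1 went from 7019, 7963, 5615 and 7621 CPM to 8263, 8023, 3854 and 7042 CPM, higher periportally in DA nuclei 1 and lower in both LEW libraries. In DA nuclei 2 the 95% Poisson intervals of the 2 bins, 7835 to 8093 and 7884 to 8163 CPM, overlapped. G6pc went from 3258, 3699, 3486 and 2366 CPM to 3941, 3928, 2760 and 1870 CPM, higher in both DA libraries and lower in both LEW libraries.

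With the rat in the model, 1210 of 9258 genes, 13.1%, were called between the outer bins, 7.58% as higher and 5.49% as lower in the periportal bin. Slc2a2 was higher in the periportal bin by a log2 fold change of 0.75 (SE 0.12, adjusted p = 6.308e-05) and Fbp1 by 0.69 (SE 0.12, adjusted p = 0.0001571), and Ppp1r3c was lower at -0.65 (SE 0.13, adjusted p = 0.0007754). Ppargc1a was called higher at 1.86 (SE 0.55, adjusted p = 0.02322) on 8, 4, 2 and 13 UMIs against 3, 0, 1 and 5 UMIs, and lost this call by DESeq2 (adjusted p = 0.06668) and without DA nuclei 2 (adjusted p = 0.0933) or LEW nuclei 2 (adjusted p = 0.1529). Pck1 at 0.02 (SE 0.14), G6pc at 0.04 (SE 0.13), Errfi1 at 0.09 (SE 0.12) and Lpin1 at 0.02 (SE 0.15) were close to 0. With total UMIs only the median of all genes was -0.14, and the calls were 391 higher and 747 lower in place of 702 and 508.

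The strain difference of the zone difference was not called for any member, where 17 of 9258 genes, 0.184%, were called, 0.0216% as lower. It was -0.25 for Pck1 (SE 0.26, adjusted p = 0.7405), -0.31 for G6pc (SE 0.24, adjusted p = 0.6499), 0.41 for Ppp1r3c (SE 0.23), 0.35 for Slc2a2 (SE 0.22), 0.04 for Fbp1 (SE 0.23), -0.07 for Errfi1 (SE 0.23), -0.18 for Lpin1 (SE 0.28) and -0.41 for Ppargc1a (SE 1.25). The share of nuclear RNA also differed between the bins, and not in the same direction in every library. Its median was 0.184% in the pericentral and 0.299% in the periportal bin of DA nuclei 1, 0.477% and 0.351% in DA nuclei 2, 0.088% and 0.043% in LEW nuclei 1, and 1.342% and 0.28% in LEW nuclei 2. Its part in the zone values was not tested. Among the rich nuclei alone, Pck1 had a mean log2 ratio, periportal over pericentral, of -0.01 ± 0.24 (SD, n = 4) and G6pc of -0.01 ± 0.13, whereas Fbp1 was at 0.74 ± 0.24, Slc2a2 at 0.40 ± 0.17 and Ppp1r3c at -0.79 ± 0.42.

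Other genes of the pathway were zoned as well, in a fit that called 7.58% of all genes higher and 5.49% lower in the periportal bin. Among the other enzymes of gluconeogenesis and glycolysis 7 of 17 were higher in the periportal bin and none lower, led by Gpt, alanine aminotransferase, at 0.90 (adjusted p = 2.063e-06) and Gapdh at 0.83 (adjusted p = 0.001773), and with total UMIs only 3 were higher and none lower. Of the fasting hormone targets 3 of 10 were higher and 2 lower, but 1 higher and 2 lower with total UMIs only, led by Sds at 2.09 (adjusted p = 1.7e-12) and Cited2, a transcriptional coregulator, at -1.04 (adjusted p = 1.165e-06). Of the 12 fed-state genes reported 4 were higher and 1 lower, or 3 and 1 with total UMIs only, led by the fatty acid elongase Elovl6 at 1.15 (adjusted p = 0.005381) and Pnpla3 at 1.04 (adjusted p = 0.002329). Dissociation genes were lower in the periportal bin for 6 of 10. Not all of these directions were seen on the Wistar sections described below. Gpt, Sds and Cited2 kept theirs on both sections. Pnpla3 had log2 ratios, periportal over pericentral, of -1.25 and -1.10, and Gapdh of -0.24 and -0.10. Jun, Ier2, Dusp1, Btg2 and Zfp36, the dissociation genes of at least 20 CPM there, were above 0 on both. These differences were not tested.

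**Figure D3:**
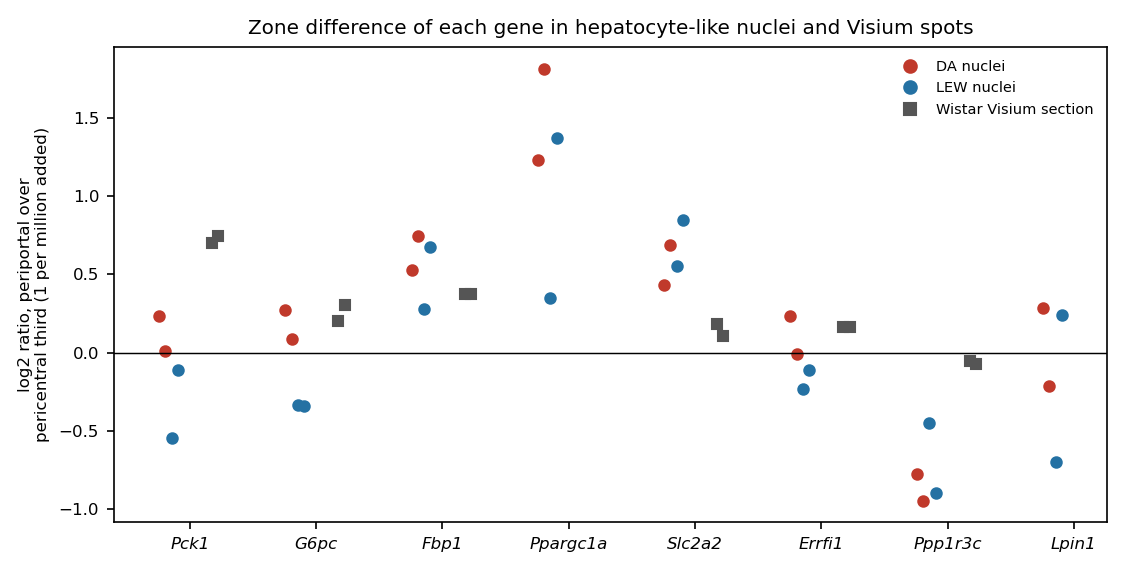
Log2 ratio of the level in the periportal over the pericentral bin for each gene, with 1 point per nuclei library and per Visium section. Pck1 lies between -0.54 and 0.24 in the 4 nuclei libraries and at 0.70 and 0.75 in the 2 sections.

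In the Wistar sections Pck1 had the steepest gradient of the 6 members that were above 1 CPM. Spots of at least 5000 UMIs, 2260 and 2196 of them, were divided by the same score, and the 2 sections, which the study describes as coming from 2 rats, are given as values without a test. Pck1 was at 1277, 1669 and 2071 CPM in the pericentral, middle and periportal bin of section 1 and at 1344, 1811 and 2256 CPM in section 2. Over 10 finer bins of the score it went from 1148 to 2200 CPM and from 1183 to 2391 CPM. Its log2 ratio of the periportal over the pericentral bin was 0.72 ± 0.04 (SD, n = 2).

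Fbp1 followed, from 752 to 973 CPM and from 831 to 1079 CPM, a log2 ratio of 0.37 in section 1 and 0.38 in section 2. G6pc went from 821 to 943 CPM and from 880 to 1087 CPM, with ratios of 0.20 and 0.30. Slc2a2 had ratios of 0.18 and 0.11, Errfi1 of 0.16 in both sections, and Ppp1r3c of -0.05 and -0.07. Ppargc1a and Lpin1 were under 1 CPM in each bin, on at most 8 UMIs, and no gradient can be read for them. Pck1 and Fbp1 were above 0.2 in both sections, as were 5.94% of 3588 genes of at least 20 CPM, and 6.74% were below -0.2. Pck1, which went in opposite directions among the nuclei libraries and rose on both sections, and Slc2a2 and Ppp1r3c, zoned in nuclei and nearly flat on the sections, thus differed between these assays, which also differ in strain, in RNA compartment and in the number of cells per barcode. That difference was not tested.

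Likeness was measured as the correlation of log2 levels after the mean of each preparation was taken off, so that differences between whole cells and nuclei do not enter. Over the 8 TLH and nuclei libraries, the genes whose deviations went most closely with those of Pck1 were Nfyc (r = 0.962), Csrnp1 (r = 0.953), Nln (r = 0.939), Spop (r = 0.937) and Cdc42bpb (r = 0.932), of 3300 genes. For G6pc they were Lpcat3 (r = 0.969), AABR07053136.1 (r = 0.955), Tubb2a (r = 0.951), Tsku (r = 0.940) and Cgn (r = 0.935). Among the members, Pck1 went with Errfi1 (r = 0.896) and G6pc with Ppp1r3c (r = 0.913). Pck1 went less closely with G6pc (r = 0.266), Slc2a2 (r = 0.104) and Fbp1 (r = -0.177). The 8 points share strains and 4 of them each preparation, and these values describe deviations within TLH and within nuclei only. Over the 20 finer bins of the 2 sections, of 3483 genes, Pck1 was nearest to Spink1l (r = 0.997), Gpx1 (r = 0.994), Apoc3 (r = 0.991), Sult2a6 (r = 0.991) and Itih4 (r = 0.989), and it went with Fbp1 (r = 0.987) and G6pc (r = 0.959). These points share the order by zone, and the mean of each section was taken off first.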

How the data were processed

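The authors aligned reads to a rat reference with Cell Ranger 3.1.0, or Space Ranger 1.1.0 for Visium, and deposited the raw counts of UMIs, with no normalization, for each gene in each barcode. The TLH and immune-enriched tables list genes by row number alone, so symbols were read from the nuclei gene list, which has as many rows. The members and gene lists were chosen with earlier results of these data known.

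Cells were kept by the limits of the study (1500 or 2000 UMIs for TLH, 1000 for nuclei and immune-enriched cells), except that LEW TLH cells needed 2000 UMIs where the study states 1500, since only the higher limit gives the cell numbers of the authors. The upper limit on the mitochondrial share was 30% in DA TLH 1, 20% in DA TLH 2 and 40% in both LEW TLH libraries. It was 10% for nuclei and 50% for immune-enriched cells. The TLH limits thus differed with strain, and their part in the strain values was not tested. Counts were normalized with sctransform 0.4.2, reduced with irlba 2.3.5.1, corrected by a Harmony procedure written for this purpose, clustered with Seurat 5.3.0, and named from markers, by a rule whose last step was set with the counts in hand. Clusters resting on too few markers stayed unnamed. Scrublet called 7 TLH cells in all, so doublets were not effectively removed there.

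UMIs were summed per library and class and tested with the quasi-likelihood test of edgeR 4.0.16 (robust, TMM, default filter) in R 4.3.3, with Benjamini-Hochberg adjustment over all genes tested and calls at 0.05, which is the source of every adjusted p unless DESeq2 1.42.0 is named. Zone, droplet and nuclear RNA comparisons had the rat in the model. The steps were tested on simulated data. CPM are UMIs per 1000000 UMIs of the sum, and log2 ratios outside the fits add 1 CPM to both sides. Genes named in each comparison were those of the 8 members that could be tested, singly or as a range, and for each list the 2 called genes with the largest log2 fold change; others are said to be chosen afterwards or stand with the counts they belong to. Mlxipl, Nr3c1, Phka2 and Sirt1 had no entry in the gene list by these symbols, and 1 gene of the fed-state list is not reported here and is left out of its counts and medians. Alternatives were other scaling, DESeq2, no filter, each replicate left out, the replicate block, other cell filters and classes, and other zone scores. Precision was limited by the 2 rats per strain and by counting error, for Ppargc1a throughout and for Lpin1 in TLH and on the sections.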

Additional observations from a re-analysis of the deposited data

Results flagged for a closer look

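In 32 sets of 4 libraries, Dixon's test at 95% marked 6 values far from the rest of their set, where chance marks about 1 in 20. The sets share libraries and levels, so the marks are not independent and their number is no test against that rate. Pck1 and Errfi1 were lowest in LEW nuclei 1, at 4305 and 1232 CPM. Lpin1 was highest in DA TLH 2, at 23.5 CPM among TLH libraries, and in DA nuclei 1, at 762 CPM among nuclei. The log2 ratio of shallow droplets to hepatocyte-like cells was highest for Fbp1 in LEW TLH 1, at 0.12, and lowest for Lpin1 in DA TLH 2, at -3.17.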

How the results depend on the processing

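Over 904 values of the members under alternative settings, 795 kept their direction and side of the threshold, 34 became significant, 17 lost significance and 58 changed direction, most of them estimates near 0. Each strain had 2 libraries per preparation, so leaving out 1 assumes that the lone library varies like the others, and causes of the changes below were not tested. The total UMI scaling, the crossed block, the nuclear RNA alternatives and some cell classes were chosen after seeing the data.

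Replicate numbers did not pair the samples: deviations correlated at -0.403 between DA TLH and DA nuclei and at -0.226 between DA and LEW TLH, but at 0.249 between LEW TLH and LEW nuclei and 0.112 between DA and LEW nuclei. With the replicate block, the strain calls were 133 in TLH and 357 in nuclei, the platform calls 8037 and the strain by platform calls 15, and with the DA numbers crossed 8284 and 10. With the block Lpin1 was at 3.15 between platforms (adjusted p = 0.1169), and the strain by platform value of Pck1 was -0.06 with either block.

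The 401 strain calls in TLH became 1132 without the filter on low counts, 607 over all kept barcodes, 234 at 3000 UMIs or more, and 59 to 271 with 1 replicate left out (271 without DA TLH 1, 232 without DA TLH 2, 59 without LEW TLH 1, 78 without LEW TLH 2). The 120 in nuclei became 440 without the filter, 215 by DESeq2, 187 with total UMIs only or with each library clustered on its own, 75 at 2000 UMIs or more, 35 in nuclei rich in nuclear RNA, and 96 to 431 with 1 left out (199 without DA nuclei 2, 431 without LEW nuclei 2). The strain by platform calls became 23 without the filter, 10 by DESeq2 and 0 to 6 with 1 left out. The 1210 zone calls became 789 by DESeq2, 667 with 11 zone genes of the study and 648 to 1515 with 1 left out (648 without DA nuclei 2, 649 without LEW nuclei 2). The 17 strain by zone calls became 39 without the filter, 10 with total UMIs, 283 with the 11 genes, 403 with the outer of 4 bins and 4 to 130 with 1 left out (4 without either DA library, 72 and 130 without LEW nuclei 1 and 2). The mitochondrial calls became 1882 by DESeq2 and 2022 to 3307 with 1 left out (2022 without LEW TLH 1), and the nuclear RNA calls in TLH 477 by DESeq2, 3156 with the abundant genes and 480 to 1193 with 1 left out (480 and 799 without LEW TLH 1 and 2). The Visium ratio of Pck1 was 0.81 with the outer of 4 bins.

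Directions turned as follows. Ppargc1a between strains was at -0.33 over all kept TLH barcodes, at 0.18 in nuclei of 2000 UMIs or more and at 0.06 in nuclei rich in nuclear RNA. For strain by platform, Pck1 was at -0.016 by RLE factors and by DESeq2. For zone, total UMIs gave -0.12 for Pck1, -0.036 for Errfi1, -0.091 for Lpin1 and -0.087 for G6pc, and the outer of 4 bins gave -0.022 for Pck1 and -0.17 for Lpin1. Total UMIs gave -0.17 for Fbp1 in strain by zone, 0.01 for Ppp1r3c in shallow droplets, -0.086 for Pck1 by mitochondrial share and 0.31 for Fbp1 by nuclear RNA of nuclei. Without the filter Ppp1r3c was at 0.017 in shallow droplets and -0.011 by nuclear RNA in TLH.

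With 1 replicate left out, Ppargc1a ranged from -0.39 to 0.58 between strains in TLH, -1.53 to 0.82 in nuclei, -0.24 to 0.59 between platforms, -1.60 to 0.72 for strain by platform and -3.69 to 0.16 for strain by zone. Slc2a2 ranged from -0.93 to 0.035 between strains in nuclei and -0.30 to 0.62 for strain by platform, and Ppp1r3c from -0.15 to 0.49 between platforms and -0.07 to 0.056 by nuclear RNA in TLH. For strain by platform, Pck1 ranged from -0.45 to 0.36, G6pc from -0.41 to 0.97, Fbp1 from -0.55 to 0.003 and Lpin1 from -2.59 to 1.62. For zone, Pck1 ranged from -0.046 to 0.097, G6pc from -0.02 to 0.11 and Lpin1 from -0.10 to 0.17. For strain by zone, Errfi1 ranged from -0.16 to 0.004, Fbp1 from -0.10 to 0.20 and Lpin1 from -0.55 to 0.27, and Fbp1 by nuclear RNA in TLH from -0.056 to 0.021. Depth limited Ppargc1a in every comparison and Lpin1 in TLH and on the sections.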
